A study of Mus musculus with 6 samples.

Results

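The platelet-derived growth factor (PDGF) receptors and ligands were followed in FAPs (fibro-adipogenic progenitors), mesenchymal cells that lie between the fibres of skeletal muscle. The family was taken by gene symbol: the receptors Pdgfra and Pdgfrb, the receptor-like gene Pdgfrl, and the ligands Pdgfa, Pdgfb, Pdgfc and Pdgfd, which are 7 of the 54100 genes in the count table. The 6 libraries came from C57BL/6 mice (the labels name the strain and no allele or drug). Pdgfra+ cells had been sorted from the plantaris, a calf muscle, 1000 to a tube, and sham and overloaded muscle gave 3 libraries each. The method and the duration of the overload, the sex and the age are not given in these sources, nor is it stated whether each library was a separate animal or a pool. The p-values below therefore measure the scatter among these libraries, part of which may be technical.

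PDGFs are secreted dimers that bind and activate a pair of receptor tyrosine kinases. The receptor encoded by Pdgfra is bound by the A, B and C chains, and the one encoded by Pdgfrb chiefly by the B and D chains. The A and B chains are cut to maturity inside the cell by furin-like proprotein convertases, whereas the C and D chains are secreted as latent forms and activated outside the cell by plasminogen activators and related proteases. In muscle, Pdgfra marks FAPs and is used to sort them, Pdgfrb is best known from pericytes and other mural cells, and activation of the receptor on mesenchymal cells is linked to proliferation and matrix production.

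The ligand gene Pdgfa rose in overloaded FAPs, and the receptor that its product binds, Pdgfra, did not pass the test, with lower values in all 3 overloaded libraries. The promoters of Pdgfa, of Pdgfra and of Pdgfc, the ligand with the next most counts, are shown. They belong to the ligand that rose, its receptor and a ligand with too few counts to enter the fit. RefSeq promoter entries on GRCm38.p6 covered 4 of the 7 members, Pdgfra, Pdgfa, Pdgfc and Pdgfd, with 2 entries for Pdgfa. Entries for Pdgfrb, Pdgfrl and Pdgfb were missing. The bases before the annotated start are given 5′ to 3′ in the sense of the gene, at chr5:75152001-75152250 (+) for Pdgfra, chr5:138995038-138995194 (-) for Pdgfa and chr3:81036166-81036415 (+) for Pdgfc. In the lines below, capitals mark the only match to a searched motif, GGAATG, and 2 further matches for Pdgfa are given after them.
Pdgfra: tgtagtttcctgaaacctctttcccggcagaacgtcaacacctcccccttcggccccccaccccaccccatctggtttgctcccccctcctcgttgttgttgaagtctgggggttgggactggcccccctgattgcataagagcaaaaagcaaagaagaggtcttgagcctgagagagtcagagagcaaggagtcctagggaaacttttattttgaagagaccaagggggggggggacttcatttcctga
Pdgfa: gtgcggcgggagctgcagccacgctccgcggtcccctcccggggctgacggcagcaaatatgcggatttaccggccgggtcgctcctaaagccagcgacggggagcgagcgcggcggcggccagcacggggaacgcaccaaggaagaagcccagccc
Pdgfc: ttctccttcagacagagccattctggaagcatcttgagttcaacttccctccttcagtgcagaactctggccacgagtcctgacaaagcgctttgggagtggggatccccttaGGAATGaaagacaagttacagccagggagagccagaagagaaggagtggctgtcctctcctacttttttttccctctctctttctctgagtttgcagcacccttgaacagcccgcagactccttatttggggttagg
For Pdgfa, the 93 bases next to the start lie in an exon of a longer transcript and are left out, apart from the 13 bases CCGCCCtCCGCCC with which they begin and which hold 2 matches in capitals to the GC box on the opposite strand.

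The motifs searched on both strands of the 250 bases before each start were the GC box GGGCGG, an Egr1 core GCGNGGGCG, the AP-1 site TGANTCA and the TEAD site GGAATG. A GC box was present in both Pdgfa windows and in no window of Pdgfra, Pdgfc or Pdgfd, while 32.7% of all 32851 RefSeq promoter windows held one. The GGAATG match in Pdgfc was the only TEAD match among these members, against 12.6% of all windows. Neither the Egr1 core, found in 4.7% of all windows, nor the AP-1 site, found in 6.75%, occurred in any of the 5 member windows. The first Pdgfa window was 72.4% G and C, more than 93.6% of all windows, and the Pdgfra window was 54.4%, near the median of 52.4%. A match describes letters, and no binding was measured.

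Total counts ranged from 500402 to 754456 in sham libraries and from 850857 to 1124210 in overloaded libraries, a difference at the smallest p that an exact two-sided permutation test of 3 against 3 can reach (p = 0.1). Levels are given as CPM, counts scaled to a common library size over the tested genes with TMM scaling (trimmed mean of M-values), so that 1 count was worth 1.35 to 2.07 CPM under sham and 0.962 to 1.25 CPM under overload. Of 7207 genes that passed the count filter, 29.3% were called by edgeR's quasi-likelihood test at a Benjamini-Hochberg adjusted p under 0.05, 15.0% higher and 14.3% lower in overloaded libraries. Reads in 1992 genes of olfactory and vomeronasal receptors, which belong to sensory neurons, served as a measure of background and came to 781 to 1819 CPM of the total under sham and 232 to 1092 under overload (exact permutation p = 0.2). All 15 FAP markers other than Pdgfra were detected, with decorin (Dcn) at 18456 to 21372 CPM under sham and 7684 to 8615 CPM under overload. The purity of the sort was not tested. Of these 15 markers, 4 were called higher, 8 lower and 3 neither.

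**Figure D1:**
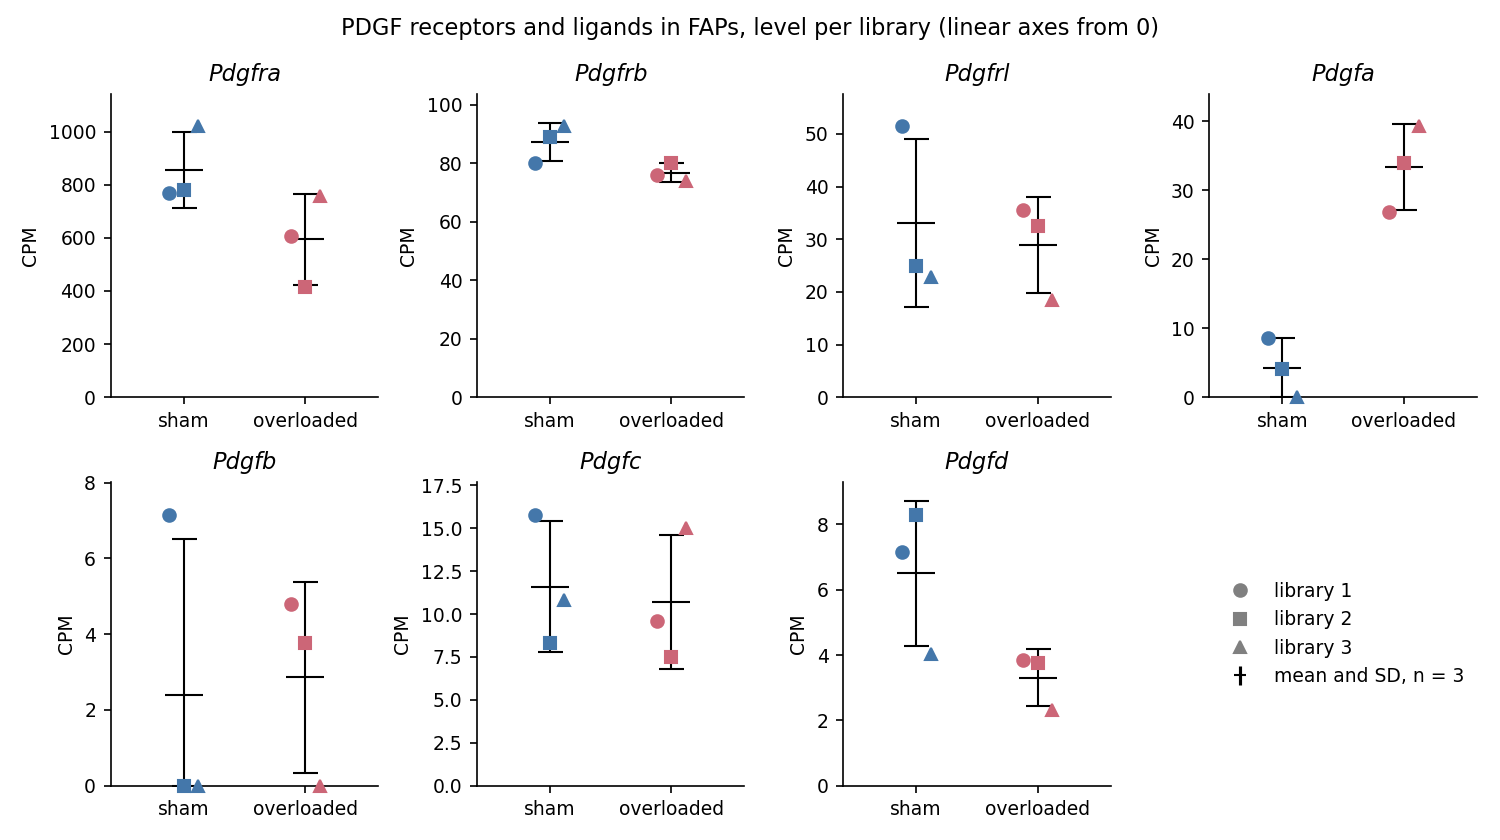
Level of each PDGF receptor and ligand in CPM (vertical axes, linear, each with its own scale from 0) in sham and overloaded libraries; symbols are single libraries and the bars are the mean and SD of 3 libraries, with the SD bar stopped at 0. The 3 overloaded libraries lie between 26.9 and 39.3 CPM for Pdgfa, all above the sham libraries, and between 416 and 759 CPM for Pdgfra, all below them.

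Pdgfra, which encodes the alpha receptor and was also the sorting marker, had the most counts of the family. Its level was 769, 780 and 1021 CPM under sham (libraries 1 to 3) and 607, 416 and 759 CPM under overload (libraries 1 to 3). The groups did not overlap, although the highest overloaded library came close to the lowest sham library, and overloaded library 2 was the lowest of all. The mean was 857 ± 143 CPM (SD, n = 3) under sham and 594 ± 172 CPM (SD, n = 3) under overload. The log2 fold change was -0.53 (SE 0.21, 95% interval -0.97 to -0.09), and edgeR's adjusted p of 0.0624 did not pass the threshold.

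The Pdgfra result lay close to the threshold and its side depended on the setting. It passed in 6 of 18 alternative fits, among them the one without TMM, on library size alone (-0.59, edgeR adjusted p = 0.0386). The log2 fold change ranged from -1.05 with the background share as a covariate (edgeR adjusted p = 0.0163) to -0.31 without overloaded library 2 (edgeR adjusted p = 0.318). Overloaded library 2, with the lowest Pdgfra, also held the most background of its group, 1092 CPM of the total. Sham library 2 held the most background of all libraries, 1818.5 CPM of the total. Its Pdgfra, 779.8 CPM, was not the lowest of the sham libraries, as sham library 1 had 768.9 CPM. Leaving out the library of each group with most background, sham 2 and overloaded 2, gave -0.39 (edgeR adjusted p = 0.306). That setting was chosen after the data were seen. The part of background in the Pdgfra result was not tested. Because sorting required the Pdgfra protein at the surface, these are levels among cells that passed the gate, and in pooled cells fewer cells of a type and less RNA per cell cannot be told apart.

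Pdgfra lies on chromosome 5 at 75152292 to 75198215 on the plus strand of GRCm38. Its exons overlap those of Gm42802, Gm42803 and Mir7025, which together had 1 count in the 6 libraries.

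Pdgfrb, the beta receptor, was present at a lower and steady level. It had 80.2, 89.2 and 92.8 CPM under sham (libraries 1 to 3) and 76.0, 80.3 and 74.0 CPM under overload (libraries 1 to 3). Overloaded library 2 lay just above sham library 1, so that the groups overlapped. The log2 fold change was -0.19 (SE 0.24, 95% interval -0.68 to 0.31; edgeR adjusted p = 0.612), and it passed in 0 of 18 alternative fits. The interval leaves room for a fall to 0.623 or a rise to 1.24 of the sham level. Pdgfrb is on chromosome 18 at 61045150 to 61085061 on the plus strand.

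Mural cells, which also carry this receptor, were looked for through 10 markers. Their summed level was 166 to 232 CPM under sham and 120 to 199 CPM under overload, overlapping (exact permutation p = 0.6, adjusted over 9 marker lists 0.6). The single genes given here were picked after their values were seen. Cspg4 held the most counts of this list in every library, and the pericyte gene Rgs5 had 35, 5 and 7 counts under sham and 22, 14 and 1 under overload. The smooth muscle gene Myh11 had 0 to 11 counts in any library. The share of Pdgfrb that came from mural cells was not tested.

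Pdgfrl, which encodes a secreted protein resembling the outer part of the receptors, was the least abundant of the 3. It had 51.5, 24.9 and 22.9 CPM under sham and 35.6, 32.6 and 18.5 CPM under overload. Sham library 1 stood above the others and the groups overlapped. The log2 fold change was -0.20 (SE 0.37, 95% interval -0.96 to 0.56; edgeR adjusted p = 0.732), and without sham library 1 it was 0.33. Pdgfrl lies on chromosome 8 at 40926212 to 40990785 on the plus strand.

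Per kilobase of merged exons, the mean level was 85.5 CPM under sham and 59.3 CPM under overload for Pdgfra, 16.0 and 14.0 CPM for Pdgfrb, and 10.6 and 9.25 CPM for Pdgfrl. Counts by gene do not show how reads spread along a transcript, so the length scale is only a convention here. Within a library, the log2 ratio of Pdgfra to Pdgfrb counts was 3.25, 3.11 and 3.45 under sham and 2.99, 2.37 and 3.35 under overload. The difference was -0.37, the groups overlapped, and the exact two-sided permutation p was 0.3 (adjusted over 2 ratios 0.3). Pdgfra supplied 83.8 to 91.7% of the counts of both receptors in every library, with overloaded library 2 lowest.

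Pdgfa, which encodes the A chain, rose in overloaded FAPs. Its counts were 6, 2 and 0 under sham (libraries 1 to 3) and 28, 27 and 34 under overload (libraries 1 to 3), or 8.59, 4.15 and 0 CPM against 26.9, 33.9 and 39.3 CPM. All 3 overloaded libraries lay above all sham libraries, and the mean was 4.25 ± 4.30 CPM (SD, n = 3) in sham and 33.4 ± 6.21 CPM (SD, n = 3) in overloaded. The log2 fold change was 2.94 (SE 0.57, 95% interval 1.79 to 4.10; edgeR adjusted p = 1.94e-04), a fold of 7.70 with a 95% interval of 3.46 to 17.1. By size of rise it was 52nd of the 1084 genes called higher.

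The Pdgfa call held in all 17 alternative fits that tested it, with log2 fold changes from 2.30 without sham library 3 to 4.23 without sham library 1. The smallest group total was 8 counts in sham, so the exact size of the rise is loosely fixed: the ratio of summed counts per library size was 7.92, with a 95% interval for counting error of 3.85 to 18.9. Pdgfa passed the count filter only through its overloaded libraries, which were above 12.5 CPM where no sham library was. A minimum count of 30 left it untested. Overloaded libraries were also deeper, and lower in background on average, than sham libraries. With every library thinned to the total of the shallowest the log2 fold change of Pdgfa was 2.92, and with the background share as a covariate it was 3.32, both called. Thinning cannot add counts to the sham libraries, and the part of depth and of background in the Pdgfa result was not tested.

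**Figure D2:**
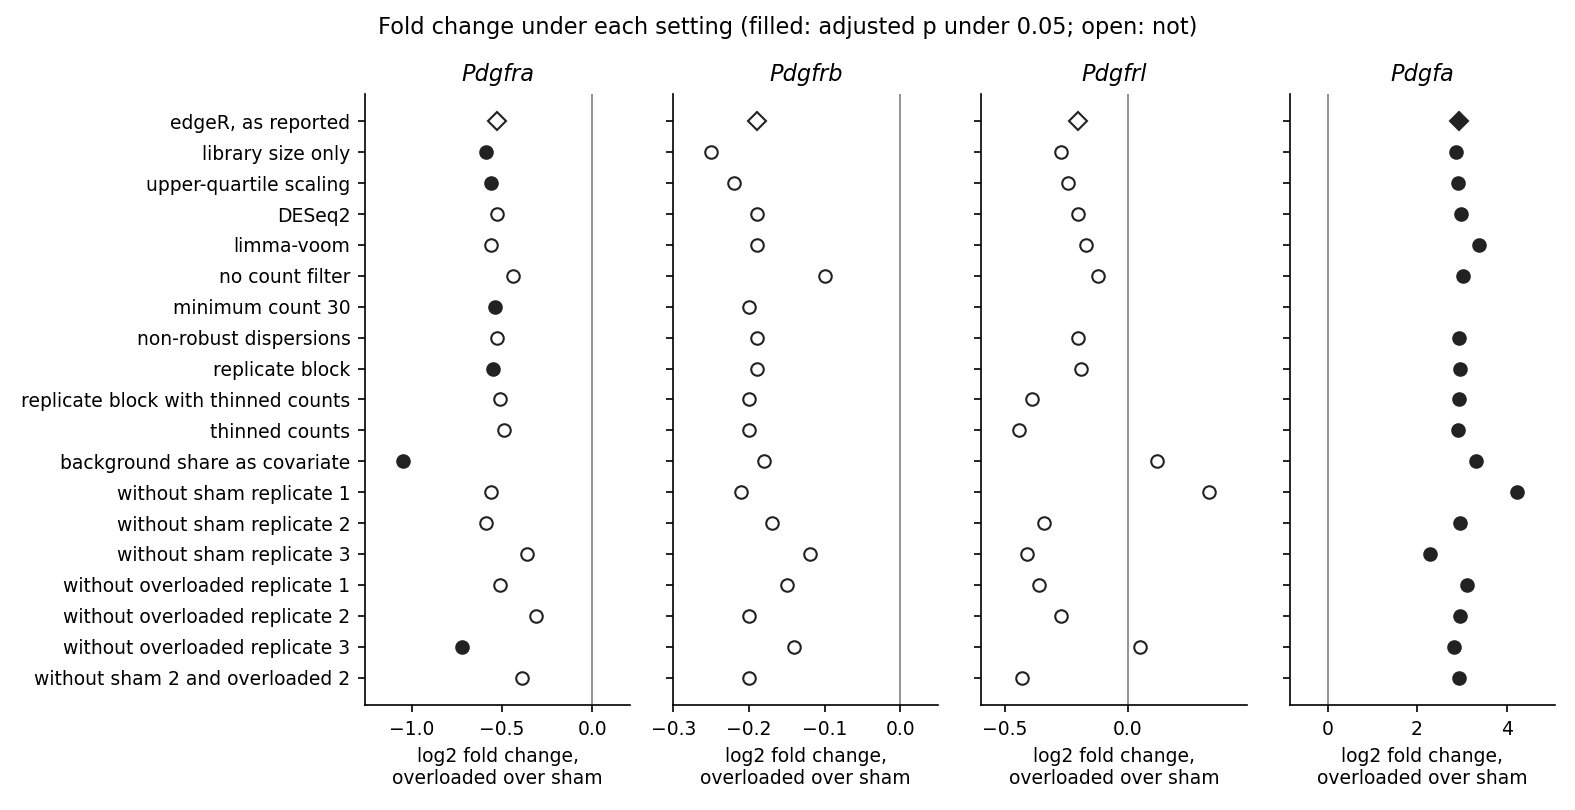
Log2 fold change of overloaded over sham (horizontal axes, which differ between panels) for the 4 tested members under each setting (vertical); filled symbols have an adjusted p under 0.05 and the diamond is the reported edgeR fit. Pdgfa lies between 2.30 and 4.23 and is filled wherever it was tested, whereas Pdgfra is filled in 6 of 18 alternatives.

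Pdgfa lies on chromosome 5 at 138976014 to 138997370 on the minus strand. The antisense gene 6330403L08Rik overlaps 26.1% of its exon bases, though not its last exon, and had 2, 1 and 0 counts under sham and 1, 9 and 9 under overload. As no source gives the strand setting of the counting, reads in the shared bases cannot be assigned to one gene or the other. Pdgfa itself had 6, 2 and 0 counts under sham and 28, 27 and 34 under overload. The part of antisense reads in these counts was not tested.

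Cell types known as sources of PDGF were looked for by their markers. Endothelial markers summed to 127 to 225 CPM under sham and 33.5 to 82.8 CPM under overload (exact permutation p = 0.1, adjusted 0.225). Tek, picked after its values were seen, held that difference, with 127, 106 and 125 CPM under sham and 31.7, 23.8 and 25.4 CPM under overload. Without Tek the endothelial sum was 17.5 to 97.4 CPM under sham and 8.10 to 58.9 CPM under overload, and the groups overlapped. Platelet markers summed to 15.8 to 29.0 CPM and 26.3 to 60.6 CPM, overlapping. Most of that sum was Itga2b in every library, with 10, 10 and 16 counts under sham and 57, 14 and 28 under overload. Gp1bb had 0, 0 and 1 counts under sham and 5, 7 and 1 under overload. The platelet genes Pf4 and Ppbp had 0 or 1 count in every library. These platelet genes were picked after their values were seen. Of 10 leukocyte markers, 6 were at 0 in every library, among them the macrophage genes Adgre1, Lyz2 and C1qa. Of the others, Ptprc had 2, 4 and 5 counts under sham and 0, 8 and 1 under overload. Cd68 had 4, 3 and 2 against 0, 3 and 1, and Csf1r 4, 3 and 5 against 2, 1 and 3. Fcer1g had 1, 1 and 4 against 0, 0 and 0. The leukocyte sum was 15.8 to 22.8 CPM under sham and 1.92 to 15.0 CPM under overload. Tenocyte markers summed to 133 to 170 CPM under sham and 3380 to 4360 CPM under overload, and Thbs4 held the most of it. Without Thbs4 they summed to 48.4 to 57.3 CPM under sham and 55.2 to 105 CPM under overload. The part of endothelial cells, platelets, leukocytes and tenocytes in the Pdgfa result was not tested.

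Pdgfc, whose product is a ligand of the alpha receptor that is activated outside the cell, kept to a low level. Its counts were 11, 4 and 8 under sham and 10, 6 and 13 under overload, which is 15.8, 8.30 and 10.8 CPM against 9.62, 7.52 and 15.0 CPM. The groups overlapped, with means of 11.6 ± 3.80 CPM and 10.7 ± 3.88 CPM (SD, n = 3 each; exact two-sided permutation p = 0.7). Only 2 libraries reached the filter of 12.5 CPM where 3 were needed, so Pdgfc was not in the fit. The count ratio was 0.898, with a 95% counting interval of 0.502 to 1.62, which excludes neither a modest fall nor a modest rise. Pdgfc is on chromosome 3 at 81036416 to 81214040 on the plus strand.

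Pdgfd and Pdgfb, which encode the main ligands of the beta receptor, were near the limit of detection. Pdgfd had 5, 4 and 3 counts under sham and 4, 3 and 2 under overload, or 7.16, 8.30 and 4.04 CPM against 3.85, 3.76 and 2.31 CPM. Its groups did not overlap in CPM, but the count ratio of 0.534 had a 95% interval of 0.199 to 1.38 (exact permutation p = 0.1, the smallest possible). Pdgfb, the B chain, had 5, 0 and 0 counts under sham and 5, 3 and 0 under overload (exact permutation p = 1.0). Although few, these counts exceeded those of most background genes. Over all libraries, 97.3% of the 1992 receptor genes had fewer counts than Pdgfb, 99.3% fewer than Pdgfd and 99.9% fewer than Pdgfc. These shares take no account of gene length, and the share for Pdgfb was 92.6% under sham alone. The highest receptor gene of each library had 13 to 40 counts. Pdgfb is on chromosome 15 at 79995874 to 80014977 (minus strand) and Pdgfd on chromosome 9 at 6168584 to 6378850 (plus strand).

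In every overloaded library, Pdgfa held a larger share of the ligand counts than in any sham library. These shares, and the ratio to Pdgfc below, reuse the Pdgfa counts of the fit and are not separate evidence. Pdgfa supplied 22.2, 20.0 and 0% of the counts of the 4 ligands under sham and 59.6, 69.2 and 69.4% under overload (libraries 1 to 3 of each). Pooled, its share went from 8 of 48 counts (16.7%, 95% Wilson interval 8.70 to 29.6%) to 89 of 135 (65.9%, 57.6 to 73.4%). The share of Pdgfc was 47.9% and then 21.5%, which restates the rise of Pdgfa in the shared total, since Pdgfc itself had similar levels of 11.6 and 10.7 CPM. These intervals cover counting error only. The 0 of 11 ligand counts in sham library 3 allows a Pdgfa share of up to 25.9%. The log2 ratio of Pdgfa to Pdgfc, with 0.5 added to each count, was -0.82, -0.85 and -4.09 under sham and 1.44, 2.08 and 1.35 under overload, a difference of 3.54 with no overlap (exact two-sided permutation p = 0.1, the smallest possible; adjusted over 2 ratios 0.2). The lowest value, in sham library 3, rests on 0 Pdgfa counts and the added 0.5, and the difference was 2.46 without that library and 3.13 with 1 added to each count. The summed level of the 4 ligands was 38.7, 20.7 and 14.8 CPM under sham and 45.2, 48.9 and 56.7 CPM under overload.

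**Figure D3:**
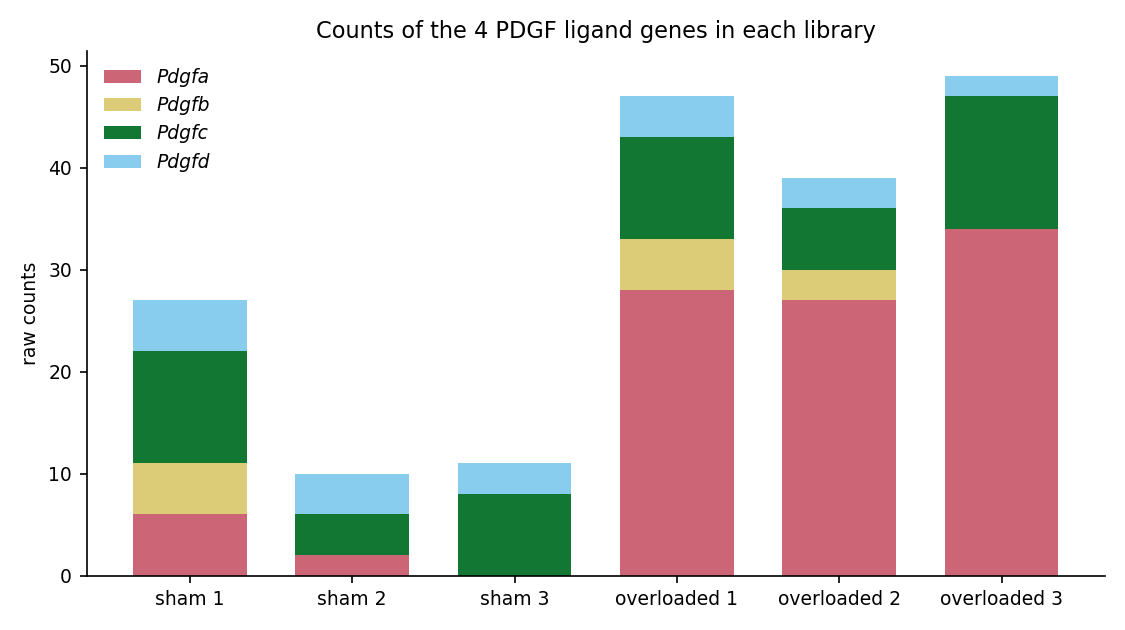
Raw counts of the 4 ligand genes (vertical axis, from 0) stacked for each library (horizontal axis), without scaling for depth. Pdgfa is 0 to 6 counts in the sham libraries and 27 to 34 in the overloaded libraries, while Pdgfc stays between 4 and 13 counts in all 6.

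Genes whose profile over the 6 libraries was most like a tested member were ranked by the root-mean-square difference between centred log2 CPM among 6973 genes. For Pdgfa these were Bdnf, a neurotrophin (0.277), the actin-bundling gene Fscn1 (0.390) and the uridine kinase gene Uck2 (0.391). Bdnf had 8.59, 4.15 and 1.35 CPM under sham and 37.5, 30.1 and 52.1 CPM under overload, a range close to that of Pdgfa. For Pdgfra the nearest were Stx17 (0.101), Ifnar1 (0.102) and Tmem106b (0.102), for Pdgfrb Chd1 (0.049), Csnk1a1 (0.068) and Baz2b (0.069), and for Pdgfrl Pfn2 (0.152), Kifbp (0.172) and Ccndbp1 (0.179). With 6 libraries such likeness is a description only.

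The genes that act around these ligands and receptors were read from 6 lists holding 107 distinct genes, of which 87 were tested. Of these, 22 were called higher and 17 lower (44.8% called, against 29.3% of all genes tested), with a median log2 fold change of -0.14 beside -0.02 for all genes tested. Proteases that mature the ligands moved in opposite directions, with 2 higher, 1 lower and 2 not called of 5 tested (60.0% called). Furin, which cuts the A and B chains, rose from 77.3, 95.4 and 90.1 CPM in sham to 140, 192 and 153 CPM in overloaded libraries (log2 fold change 0.88, edgeR adjusted p = 0.00490). Without sham 2 and overloaded 2, the libraries with most background, Furin just missed the threshold (0.81, edgeR adjusted p = 0.0507). Pcsk5, another convertase, rose (1.15, edgeR adjusted p = 3.73e-04), although not with the background covariate (0.73, edgeR adjusted p = 0.129). Pcsk6, a further member of the convertase family, fell from 1251, 1076 and 1356 CPM to 375, 288 and 237 CPM (-2.03, edgeR adjusted p = 1.19e-08). Plat, which activates the C chain, had a log2 fold change of 0.44 (edgeR adjusted p = 0.155), and Plau, which activates the D chain, -0.53 (edgeR adjusted p = 0.0508). Plat and Plau were picked after their values were seen.

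Among 8 tested proteins that bind PDGF or its receptors, 4 were higher, 1 lower and 3 not called. That is 62.5% called, against 29.3% of all genes tested, with a median log2 fold change of 0.56. Thbs1, a matrix glycoprotein, rose from 689, 763 and 938 CPM in sham to 3401, 4062 and 3499 CPM in overloaded libraries (log2 fold change 2.20, edgeR adjusted p = 1.09e-09). Sparc, which binds dimers that hold the B chain, rose by 0.90 (edgeR adjusted p = 4.36e-04). The integrin gene Itgb1 rose by 0.68 (edgeR adjusted p = 0.0115), and Lrp1, a co-receptor of the beta receptor, fell (-0.69, edgeR adjusted p = 0.00878). The Lrp1 call was lost without sham library 3 (-0.62, edgeR adjusted p = 0.0575), and that of Itgb1 without overloaded library 3 (0.52, edgeR adjusted p = 0.0761). With the background covariate both were lost, at -0.72 (edgeR adjusted p = 0.0888) for Lrp1 and 0.46 (edgeR adjusted p = 0.331) for Itgb1. Lrp1 was also lost without a count filter (-0.61, edgeR adjusted p = 0.0757) and without sham 2 and overloaded 2 (-0.68, edgeR adjusted p = 0.0588).

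Of 33 tested signalling effectors downstream of the receptors, 4 were higher, 4 lower and 25 not called. That is 24.2% called, near the 29.3% of all genes tested, with a median of -0.16. Pik3r1, the regulatory subunit of PI3-kinase that docks on the activated receptor, fell from 120, 141 and 157 CPM to 51.0, 42.6 and 24.3 CPM (log2 fold change -1.81, edgeR adjusted p = 6.08e-06). The small GTPase genes Nras (0.94, edgeR adjusted p = 0.00384) and Hras (0.81, edgeR adjusted p = 0.0104) rose, and the kinase gene Braf fell (-0.89, edgeR adjusted p = 0.0188). Without sham library 3, Braf was no longer called (-0.55, edgeR adjusted p = 0.248), nor was it without overloaded library 3 (-0.78, edgeR adjusted p = 0.0817), where Hras was also lost (0.65, edgeR adjusted p = 0.0749). Braf was lost without a count filter as well (-0.81). Without sham 2 and overloaded 2, Nras (0.61, edgeR adjusted p = 0.147) and Hras (0.76, edgeR adjusted p = 0.0822) were not called, and Hras was not called with the background covariate (0.73, edgeR adjusted p = 0.150).

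Of 16 tested attenuators of the signal, 2 were higher, 2 lower and 12 not called (25.0% called, near the 29.3% of all genes tested). The MAP kinase phosphatase gene Dusp1 fell (-1.09, edgeR adjusted p = 1.48e-04), as did the cytokine signalling inhibitor Socs3 (-0.99, edgeR adjusted p = 3.42e-04). The phosphatase gene Acp1 rose (1.56, edgeR adjusted p = 0.00528), and Spred1, an inhibitor of Ras signalling, rose by 0.59 (edgeR adjusted p = 0.0330) but was lost in 9 of 18 alternatives, among them without any one of the sham libraries and without overloaded library 3.

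Early genes that PDGF is known to induce in fibroblasts were split: of 18 tested, 8 were higher, 7 lower and 3 not called. That is 83.3% called, against 29.3% of all genes tested, with a median of -0.24. Ccl2, a chemokine, rose from 1748, 2016 and 2374 CPM in sham to 26618, 22250 and 24570 CPM in overloaded libraries (log2 fold change 3.58, edgeR adjusted p = 1.60e-14), and Ier3 rose by 1.76 (edgeR adjusted p = 5.59e-08). The transcription factor genes Fosb (-1.93, edgeR adjusted p = 1.25e-08) and Egr1 (-1.70, edgeR adjusted p = 6.46e-08) fell. Named after their values were seen, the other 5 that fell were Fos, Jun, Junb, Myc and Ier2, and the other 6 that rose were Fosl1, Egr3, Nr4a1, Srf, Cxcl1 and Plaur. Many other signals induce these genes, and PDGF signalling itself was not measured.

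In the related receptors and ligands of the PDGF and VEGF superfamily, 7 of 14 genes were tested, and 2 were higher and 2 lower. That is 57.1% called, against 29.3% of all genes tested, with a median of -0.49. Csf1, a macrophage growth factor, rose from 209, 197 and 289 CPM to 476, 443 and 735 CPM (log2 fold change 1.24, edgeR adjusted p = 9.49e-05), and Vegfa rose by 0.69 (edgeR adjusted p = 0.0200). The placental growth factor gene Pgf fell from 45.8, 43.6 and 56.5 CPM to 9.62, 3.76 and 12.7 CPM (-2.45, edgeR adjusted p = 2.83e-05), and Flt3l also fell (-1.71, edgeR adjusted p = 0.00592). The calls of Csf1, Vegfa and Flt3l were lost with the background share as a covariate, at edgeR adjusted p of 0.0775, 0.408 and 0.0589. Vegfa was also lost without sham library 1 (0.68), sham library 3 (0.71) or overloaded library 3 (0.42).

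**Figure D4:**
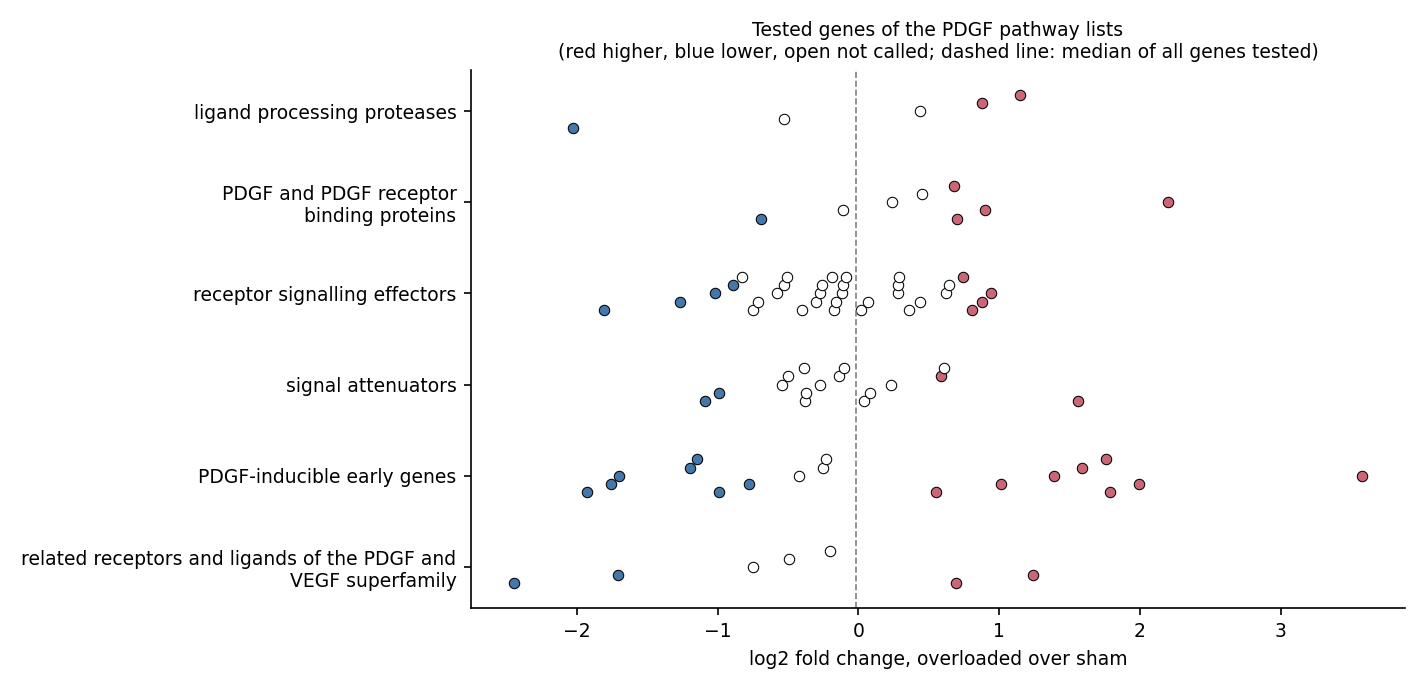
Log2 fold change of overloaded over sham (horizontal axis) for each tested gene of the 6 lists (rows, with points spread vertically for legibility); red points were called higher, blue points lower and open points neither, and the dashed line is the median of all genes tested, -0.02. The early genes lie on both sides of the line, 8 red and 7 blue, while 25 of 33 effectors are open.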

How the data were processed

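The table the authors deposited holds counts of reads by gene without any normalisation. The submitters' processing notes name featureCounts 2.0.1, HISAT2 2.2.1, Trim Galore 0.6.6 and DESeq2 1.28.1, and the GRCm38 build. Strand setting, annotation release and any collapsing of molecular identifiers are not given in these sources, so counting intervals cover counting error only. All 54100 identifiers were found in GENCODE M21, which gave positions and exon lengths.

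Genes were filtered with filterByExpr of edgeR 4.0.16 in R 4.3.3 (minimum count 10, minimum total 15), scaled by the trimmed mean of M-values and tested by quasi-likelihood with robust dispersions, all 6 libraries in 1 fit, Benjamini-Hochberg adjusted over 7207 genes. Members below the filter were compared by an exact permutation test on log2(CPM + 1). The fit was tested on simulated data. The members and lists were chosen with earlier results of these data known. By rule, the genes named were all members, up to 4 called genes of each list in order of adjusted p, and the 3 nearest profiles of each tested member. Other early genes, Plat, Plau and single marker genes were named after their values were seen. Alternatives used limma 3.58.1, DESeq2 1.42.0, other scalings, filters and subsets of libraries.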

Additional observations from a re-analysis of the deposited data

How the results depend on the processing

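Alternatives changed the scaling, the tool, the count filter, the depth, the covariates and the libraries used, and 1 of them, leaving out sham 2 and overloaded 2 together, was chosen after seeing the data. For the 39 members and further genes with a fit, 631 of 687 alternative values kept direction and side of the threshold, 30 lost a call, 11 gained one and 15 changed sign. With the background share as a covariate, 498 genes were called higher and 449 lower, and 12 distinct list genes higher, against 1084, 1027 and 22. The number of members called higher was 0 at a minimum count of 30, where fewer genes were tested and Pdgfa was not among them. The number called lower, 0 as reported, was 1 (Pdgfra) with library size only, upper-quartile scaling, a minimum count of 30, the replicate block and the background covariate, and 0 to 1 when single libraries were left out. Splits also moved: 51.4% of calls were higher as reported and 45.6% with library size only. Changes of sign were all in values that were not called: Pdgfrl gave 0.12 with the background covariate and -0.41 to 0.33 without single libraries; Baz2b gave 0.02 with thinned counts and 0.03 with the block added; Pfn2 gave 0.03 without a filter, 0.04 with thinned counts, 0.05 with the block added, 0.06 with the covariate and -0.21 to 0.29 without single libraries; Kifbp gave 0.07 with the covariate and -0.41 to 0.33 without single libraries; Ccndbp1 gave -0.34 to 0.10 without single libraries. The cause of these shifts was not tested.

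Same-numbered sham and overloaded libraries correlated at 0.008 to 0.015 after the mean of each group was subtracted from the log2 CPM of every gene. The best match was overloaded library 3 for sham 1, 2 for sham 2 and 3 for sham 3. With so few libraries, such values cannot settle whether replicate numbers pair the libraries. With the replicate block, 1043 genes were called higher and 993 lower, and Pdgfra had a log2 fold change of -0.55 (edgeR adjusted p = 0.0450). Depth limits Pdgfb and Pdgfd most, with 13 and 21 counts over all libraries.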
